A study of Mus musculus with 34 samples.

Results

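The comparison described here is that of thyroid hormone injection against saline injection in the livers of mouse pups that had all been exposed to goitrogens. Its members are the 16 arrays, of the 34 in the series, whose labels put the pup in the hypo group (9 pups, 4 male and 5 female) or in the hypo+ group (7 pups, 4 male and 3 female); the labels alone assign each pup to its group here, and no array value was used for that. All 16 were C57BL/6 pups killed on postnatal day 15. Their dams drank water with methimazole (0.05%) and perchlorate (1%), which stop the thyroid from making hormone and from taking up iodide, for the last 3 days. Hypo pups then received saline by intraperitoneal injection, and hypo+ pups received T4 at 20 µg and T3 at 2 µg, per 100 g of body weight, 4 h before the liver was taken. The study kept as hypo+ those injected pups whose serum T4 lay near or slightly above that of controls, so membership of that group was set in part by a blood value measured after the injection. Each array compared 1 pup's liver RNA, labelled with Cy5, with a commercial mouse reference RNA, labelled with Cy3 on every array with no dye swap. The remaining 18 arrays, 8 of control pups (saline, no goitrogen) and 10 of hyper pups (T4 and T3 with no goitrogen), entered no test and are used only to place levels.

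Thyroid hormone acts in the liver mainly through the nuclear receptor encoded by Thrb, which sits on DNA with or without hormone and exchanges corepressors for coactivators when T3 binds. T4, the main circulating form, is converted to the active T3 by deiodinases. In liver the hormone is best known for raising lipogenic enzymes, cholesterol turnover, mitochondrial fuel use and the deiodinase Dio1, while a smaller set of genes is lowered by it.

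Values below are log2 ratios of pup RNA to reference RNA after loess normalization within the array, and a difference is the hypo+ level minus the hypo level on that log2 scale, from a limma fit with sex as covariate and slide as random block. A probe or gene is called when its Benjamini-Hochberg adjusted p over all 41174 probes is under 0.05, and a gene is read at its brightest probe. Between 63.0% and 79.4% of probes were well above background per array, with a median of 72.2% in hypo and 73.2% in hypo+ pups, and no Cy5 spot was saturated. The hepatocyte markers were present in all 16 livers, and none of the 10 measured was called. One array stood apart: the hypo+ female 543 had high levels of pancreatic acinar transcripts, with a mean log2 ratio of 1.81 over 19 acinar genes against 0.48 to 0.63 in the other hypo+ pups and 0.33 to 0.50 in hypo pups. The labels do not say which pups share a litter, and the study fitted the sexes apart because pups of both sexes came from the same dams, so the p-values measure the spread between pups and not between litters. Because the samples are whole liver, fewer cells of a type and less RNA per cell cannot be told apart.

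The receptor's best known DNA element is built from the hexamer AGGTCA. RefSeq windows, in a set that left out a whole chromosome, were searched for the genes described first and for those with the largest differences. Gpcpd1, Ppargc1b and Ctrc had no window in that set. Among the 16 such genes that had a window, 5 held the hexamer. The window around the transcription start (GRCm38.p6, 250 bases before to 50 after) is printed for 3 of the genes that held it, a BH3-only gene and a mitochondrial carrier that rose and an acyl-CoA thioesterase that fell. Capitals mark the hexamer AGGTCA or its reverse complement TGACCT, which were searched on both strands. The Bmf window is at chr2:118549637-118549936 on the minus strand, the most upstream of 3 RefSeq starts, and the windows of the other 2 starts held no hexamer. That of Slc25a45 is at chr19:5877572-5877871 on the plus strand, and that of Acot3 at chr12:84051894-84052193 on the plus strand.
Bmf: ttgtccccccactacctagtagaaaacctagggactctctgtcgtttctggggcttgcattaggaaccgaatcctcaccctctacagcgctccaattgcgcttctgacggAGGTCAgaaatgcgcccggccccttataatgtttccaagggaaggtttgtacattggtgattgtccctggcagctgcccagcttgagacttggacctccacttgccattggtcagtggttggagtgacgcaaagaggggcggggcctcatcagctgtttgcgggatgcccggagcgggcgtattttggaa
Slc25a45: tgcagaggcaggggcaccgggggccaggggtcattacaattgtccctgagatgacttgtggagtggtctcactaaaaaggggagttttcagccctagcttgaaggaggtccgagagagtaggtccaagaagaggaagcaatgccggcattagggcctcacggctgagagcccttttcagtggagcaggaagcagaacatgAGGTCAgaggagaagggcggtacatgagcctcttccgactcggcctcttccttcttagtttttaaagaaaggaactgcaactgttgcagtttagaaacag
Acot3: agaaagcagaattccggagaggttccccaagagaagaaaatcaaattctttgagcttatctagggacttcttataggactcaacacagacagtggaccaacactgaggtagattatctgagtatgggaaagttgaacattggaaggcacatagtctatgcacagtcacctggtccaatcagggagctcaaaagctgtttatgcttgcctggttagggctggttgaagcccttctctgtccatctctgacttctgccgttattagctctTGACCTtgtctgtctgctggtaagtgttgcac
The hexamer began at position -140 in the window of Bmf, at -50 in that of Slc25a45 and at 18 in that of Acot3, counted from the start site. It was in at least 1 window of 43 of the 258 genes called higher that had a window (16.7%), of 39 of the 315 called lower (12.4%) and of 2128 of the 13235 tested genes with a symbol and a window (16.1%). Over all 27025 genes with a window the share was 18.1%. A direct repeat of the hexamer spaced by 4 bases was in no window of a called gene and in windows of 4 genes of all (0.0148%). These matches describe the letters of a short window and say nothing of receptor binding. The Slc25a45 element that the study examined in receptor binding assays lies further upstream, outside this window.

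After 4 h about as many transcripts were higher as were lower in the hormone-injected pups, and the increases were larger. Of the 41174 probes, 633 were called higher (1.54%) and 603 lower (1.46%) in hypo+ pups. Read by gene, 480 of 33236 were higher (1.44%) and 502 lower (1.51%). The balance depended on the scaling: with each array centred on its median, 260 genes were higher and 193 lower, and with the scanner software's ratios 384 and 255. Folds among the higher genes ran from 1.09 to 6.49 with a median of 1.30, and 33 of them reached 2-fold. Among the lower genes the folds ran from 1.09 to 3.41 with a median of 1.22, and 6 reached 2-fold. Every hypo+ pup was above every hypo pup of its sex in 197 genes (0.593% of all) and below in 159 (0.478%), of which 192 and 144 were also called. Most of the calls thus came from shifts in which some pups of the 2 groups overlapped. The median difference over all genes was -0.0061, and 4518 genes had an unadjusted p under 0.05.

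**Figure D1:**
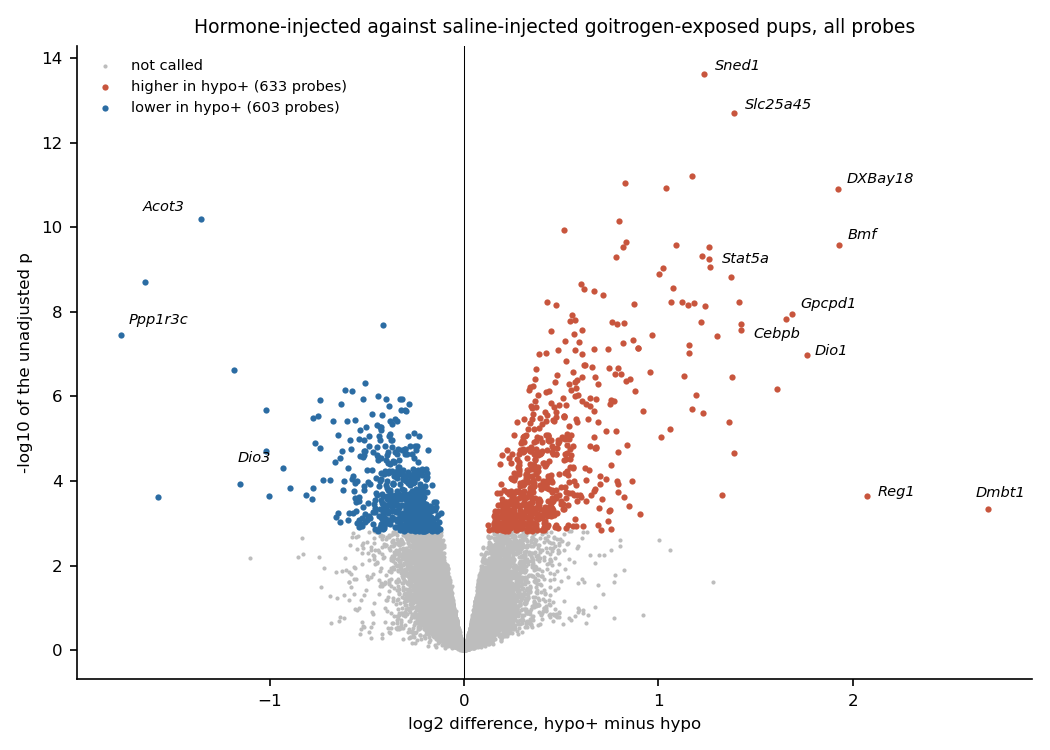
Difference between hypo+ and hypo livers (log2, x axis) against the unadjusted limma p-value (−log10, y axis) for all 41174 probes, with the 633 probes called higher and the 603 called lower in colour and a few genes named. The called increases reach 2.70 (Dmbt1) and the called decreases -1.77 (Ppp1r3c), and the smallest p-values are those of Sned1 and Slc25a45, both higher.

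Bmf, Gpcpd1, Ppp1r3c, Ppargc1b and Cebpb are described first, as genes picked for this comparison with its earlier results known, and none of them overlapped between the groups. Bmf encodes a BH3-only protein of the BCL2 family that promotes cell death. Its log2 ratio ran from -0.90 to 0.31 with a median of -0.41 in hypo pups and from 1.11 to 2.13 with a median of 1.39 in hypo+ pups. Every hormone-injected pup was above every saline pup, and the difference was 1.93 (SE 0.14, adjusted p = 8.75e-07), or 3.81-fold. The 2 dimmer Bmf probes moved much less, by 0.27 (adjusted p = 0.0416) and 0.15 (adjusted p = 0.293). Gpcpd1, which splits glycerophosphocholine into choline and glycerol phosphate, ran from 0.89 to 1.48 with a median of 1.05 in hypo and from 2.27 to 3.64 with a median of 2.61 in hypo+ livers. That difference was 1.69 (SE 0.16, adjusted p = 1.26e-05), and its other 2 probes gave 1.66 and 1.38, both called.

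The largest decrease of a named gene was in Ppp1r3c, a regulatory subunit that brings protein phosphatase 1 to glycogen. Hypo livers were tightly grouped, from 4.27 to 4.79 with a median of 4.69, whereas hypo+ livers spread from 1.94 to 3.54 with a median of 2.75. The difference was -1.77 (SE 0.18, adjusted p = 2.74e-05), a 3.41-fold decrease, and the other probe gave -1.19, also called. Ppargc1b encodes the coactivator PGC-1β, which drives mitochondrial and lipid genes. It ran from -0.021 to 0.45 with a median of 0.14 in hypo and from 1.16 to 2.05 with a median of 1.25 in hypo+ pups, a difference of 1.18 (SE 0.11, adjusted p = 7.93e-06). All 3 Ppargc1b probes were called, the other 2 at 1.42 and 1.23. Cebpb, a bZIP transcription factor of liver metabolism and the acute phase, ran from -1.27 to 0.075 with a median of -0.78 in hypo and from 0.35 to 0.92 with a median of 0.75 in hypo+ livers. Its difference was 1.42 (SE 0.14, adjusted p = 2.27e-05), with 1.26 at the second probe. Thus 4 of the 5 genes were higher after the hormone and 1 was lower, and the direction was the same in males and females for all 5.

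**Figure D2:**
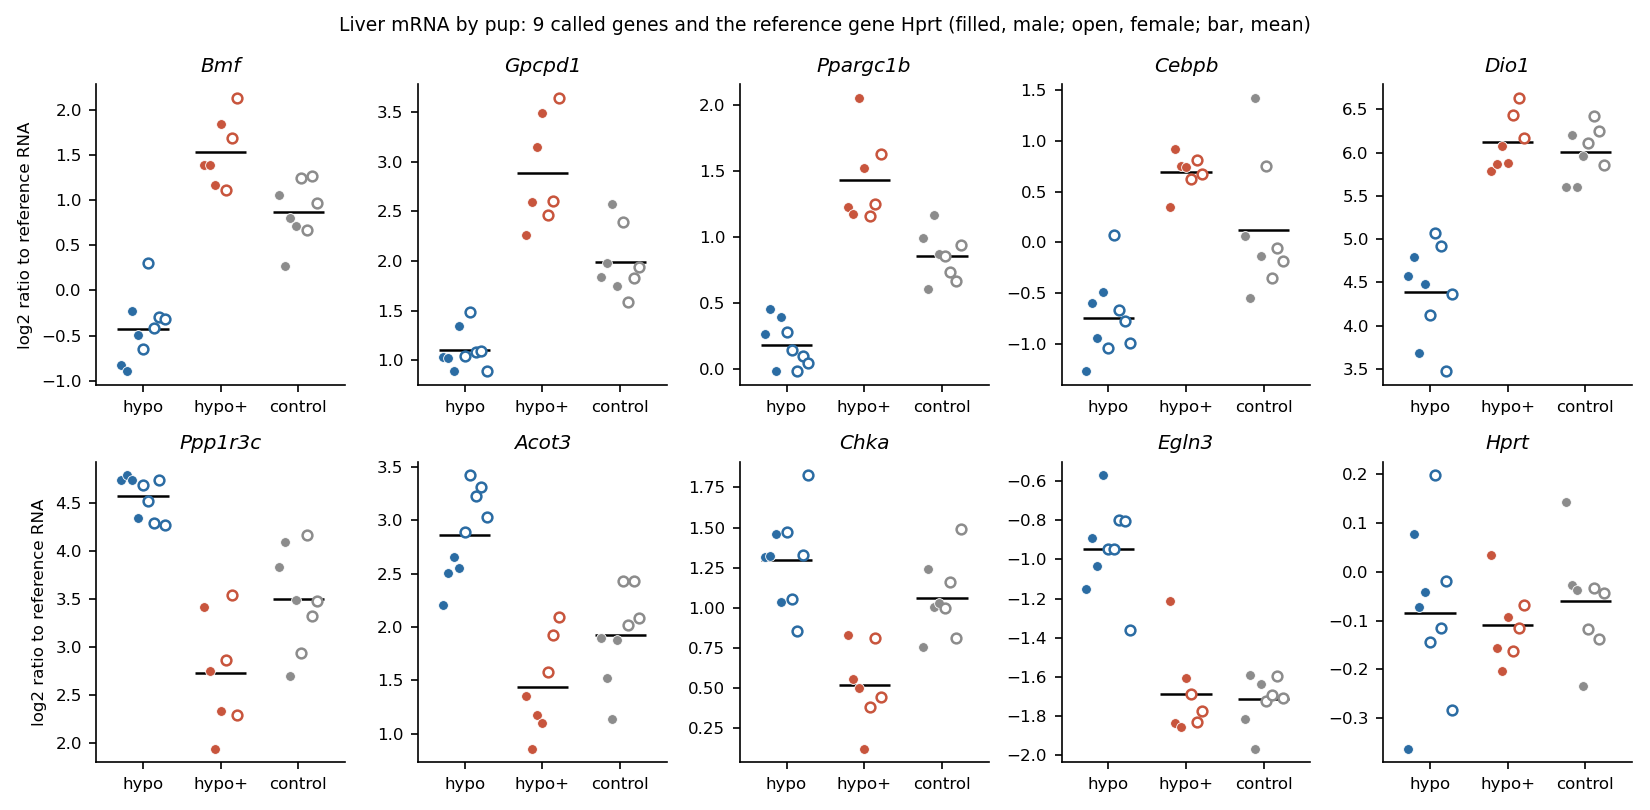
Log2 ratio to the reference RNA (y axis, its range set for each gene) of 9 called genes and Hprt in hypo, hypo+ and control pups (x axis), with 1 point for each pup (filled, male; open, female) and a bar at the group mean. For Bmf, Gpcpd1, Ppargc1b, Cebpb and Dio1 the 7 hypo+ points lie above the 9 hypo points, for Ppp1r3c, Acot3 and Chka they lie below, Egln3 overlaps in 1 pup of each group, and Hprt overlaps throughout.

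Of 25 measured genes of thyroid hormone metabolism, transport and reception, 2 were called higher and 1 lower, with a list median of 0.011 against -0.0061 over all genes. Over all 33236 genes, 1.44% were called higher and 1.51% lower, which are the shares to set beside each list count below. Dio1, the liver deiodinase that makes T3 from T4, rose. Its log2 ratio ran from 3.47 to 5.07 with a median of 4.48 in hypo and from 5.78 to 6.63 with a median of 6.08 in hypo+ livers, which did not overlap, and the difference was 1.76 (SE 0.20, adjusted p = 6.09e-05). The hypo+ median lay next to the control mean of 6.001. Dio3, the deiodinase that inactivates both T4 and T3, fell: it ran from 1.99 to 3.40 with a median of 2.64 in hypo and from 1.56 to 2.35 with a median of 1.64 in hypo+ pups, with some overlap, a difference of -0.93 (SE 0.17, adjusted p = 0.00565).

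The receptor genes themselves gave small differences that were not called. Thrb stood at -0.062 (adjusted p = 0.515) and Thra at -0.016 (adjusted p = 0.952). Klf9, a transcription factor gene often used as a marker of receptor activity, gave 0.35 (SE 0.12, adjusted p = 0.162), its hypo+ pups running from 1.19 to 2.05 with a median of 1.78 and its hypo pups from 0.86 to 1.62 with a median of 1.21. Its other, dimmer probe gave 0.61 (adjusted p = 0.052). Klf9 therefore missed the threshold at both probes, and its groups overlapped. Hprt, a housekeeping gene with no expected link to the hormone, differed by -0.042 (adjusted p = 0.839). The corepressor Ncor1 stood at -0.029 and was not called.

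Among 23 genes of lipogenesis, 5 were called higher and 1 lower (median 0.098). Thrsp, a nuclear protein that promotes fat synthesis in liver, had the largest difference of the list but was scattered. It ran from 0.029 to 1.78 with a median of 0.50 in hypo and from 0.97 to 3.37 with a median of 2.16 in hypo+ livers, with overlap, and differed by 1.33 (SE 0.28, adjusted p = 0.0151). Thrsp was well above background in 7 of 9 hypo and 7 of 7 hypo+ pups. Of 9 other settings of processing and block, 5 kept its call. Me1, the malic enzyme that supplies NADPH for fat synthesis, was steadier: from -1.94 to -1.45 with a median of -1.80 in hypo and from -1.18 to -0.76 with a median of -0.997 in hypo+ pups, without overlap, a difference of 0.82 (SE 0.087, adjusted p = 3.84e-05). Pnpla3, a lipid droplet protein, behaved likewise, with a difference of 0.87 (SE 0.091, adjusted p = 3.39e-05) and no overlap. Elovl5, which elongates polyunsaturated fatty acids, and Gpam, which starts triglyceride assembly, rose by 0.28 and 0.21 with adjusted p of 0.0385 and 0.0416. Acly, which makes cytosolic acetyl-CoA, was lower by 0.23 on the log2 scale (adjusted p = 0.0355), a call kept in 5 of the 16 omissions of 1 pup. Without single pups the count called higher ran from 3, in 10 of the 16 omissions, to 7, without the hypo female 721. The core synthases Fasn and Acaca and the factor Srebf1 were not called, at 0.15, 0.035 and -0.0094.

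Of 30 cholesterol and bile acid genes, 2 were called higher and 2 lower (median 0.015). Cyp7a1, the rate-limiting enzyme of bile acid synthesis, ran from 3.54 to 4.75 with a median of 3.91 in hypo and from 4.04 to 5.58 with a median of 4.83 in hypo+ livers. The groups overlapped, and the difference was 0.85 (SE 0.19, adjusted p = 0.022), while a second probe gave 0.50 (adjusted p = 0.0703). Fdft1, squalene synthase, was lower at its brightest probe, -0.50 (SE 0.093, adjusted p = 0.00619), but not at a dim second probe, 0.093. Srebf2, a transcription factor of cholesterol synthesis, stood at 0.16 and was not called. Every one of the 4 called genes of this list overlapped between the groups. The call of Cyp7a1 was lost without the hypo+ male 454, the hypo+ female 543 or the hypo female 743, at differences of 0.82, 0.70 and 0.81.

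Glycogen and glucose metabolism moved in both directions, with 3 of 29 genes called higher and 4 lower (median 0.10). Beside Ppp1r3c, the decreases were in Stbd1, a glycogen-binding protein (-0.60, adjusted p = 0.000928), Ugp2, which makes the UDP-glucose used for glycogen (-0.45, adjusted p = 0.00262), and the insulin receptor substrate Irs1 (-0.22, adjusted p = 0.0259). The increases were in Epm2aip1, a partner of the glycogen phosphatase laforin (0.45, adjusted p = 2.27e-05), Pfkfb3, a regulator of glycolysis (0.52, adjusted p = 0.0138), and Foxo1, a transcription factor of gluconeogenesis (0.48, adjusted p = 0.0275). Epm2aip1 ran from -0.28 to -0.094 with a median of -0.14 in hypo and from 0.11 to 0.43 with a median of 0.34 in hypo+ pups and did not overlap, though a second probe near background gave 0.073. The glycogen synthase gene Gys2, the phosphorylase gene Pygl and the glucose-6-phosphatase gene G6pc were not called, at 0.14, 0.10 and 0.14.

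For fat oxidation and mitochondrial biogenesis, 3 of 30 genes were higher, none was lower and the median was -0.0075. Gpd2, the mitochondrial glycerol-3-phosphate dehydrogenase that feeds electrons from the cytosol to the respiratory chain, ran from -0.86 to 0.035 with a median of -0.12 in hypo and from 0.50 to 1.37 with a median of 0.89 in hypo+ livers. It did not overlap and differed by 1.13 (SE 0.14, adjusted p = 0.000157). Coq10b, a coenzyme Q binding protein, was higher by 0.79 (adjusted p = 0.0139), and Ppargc1b was the third. Ppargc1a, the sister coactivator, stood at -0.022 and Cpt1a, the gate of fatty acids into mitochondria, at 0.24, neither called. Of 43 mitochondrial carriers, 2 were higher and none lower. Slc25a45 ran from 0.44 to 0.74 with a median of 0.67 in hypo and from 1.81 to 2.17 with a median of 1.89 in hypo+ pups, and its difference of 1.39 (SE 0.065, adjusted p = 4.18e-09) had the second smallest p-value of all 41174 probes. Slc25a30 was higher by 1.02 (adjusted p = 0.00175).

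The acyl-CoA thioesterases, which free fatty acids from coenzyme A, held 2 decreases among 12 genes and no increase. Acot3, a peroxisomal member, ran from 2.20 to 3.42 with a median of 2.89 in hypo and from 0.86 to 2.10 with a median of 1.35 in hypo+ livers without overlap, and fell by 1.36 on the log2 scale (adjusted p = 3.64e-07). Acot4, its peroxisomal neighbour, fell by 0.66 (adjusted p = 0.00446). These genes are close in sequence, and whether a probe reads more than 1 of them was not tested. Acot1, Acot2 and Acot12 stood at -0.36, -0.24 and 0.58, none called.

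Of 27 phospholipid turnover genes, Gpcpd1 was called higher and 2 were called lower (median 0.0036). Chka, the choline kinase that starts phosphatidylcholine synthesis, ran from 0.86 to 1.82 with a median of 1.32 in hypo and from 0.12 to 0.83 with a median of 0.50 in hypo+ pups without overlap and differed by -0.74 (SE 0.12, adjusted p = 0.00267). Cept1, which carries out the last step of that synthesis, differed by -0.24 (adjusted p = 0.0281), called in 9 of the 16 omissions of 1 pup. In the BCL2 family, 3 of 20 genes were higher and 1 lower (median 0.021). Beside Bmf, the BH3-only genes Bcl2l11 (Bim) and Bik rose by 0.56 (adjusted p = 0.00566) and 0.50 (adjusted p = 0.0205), and Bid fell by 0.26 (adjusted p = 0.00156). Bik missed the threshold without the hypo+ female 543 or the hypo+ female 763, and a second Bcl2l11 probe was not called. All 4 called genes of the family were BH3-only members, but the BH3-only genes Bad, Hrk, Bbc3 and Pmaip1 were not called. The antiapoptotic Bcl2, Bcl2l1 and Mcl1 were not called, at 0.089, 0.03 and -0.047, nor were the effectors Bax and Bak1, at -0.10 and 0.079.

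In the autophagy list 2 of 29 genes were higher and none was lower. Ulk1, the kinase that starts autophagosome formation, differed by 0.77 (SE 0.10, adjusted p = 0.000436), and Trp53inp2, a nuclear and autophagosomal protein that also coactivates thyroid receptors, by 0.90 (SE 0.10, adjusted p = 4.89e-05). Both separated the groups completely. Among signal and transcription genes, Stat5a and Stat5b, which carry growth hormone signals in liver, were the 2 called of 19 genes in their list. Stat5a ran from -0.0094 to 0.68 with a median of 0.44 in hypo and from 1.36 to 1.97 with a median of 1.55 in hypo+ livers, a difference of 1.26 (SE 0.10, adjusted p = 2e-06). For Stat5b the difference was 0.76 (SE 0.075, adjusted p = 1.71e-05), also without overlap, with 0.61 (called) and 0.20 (not called) at its 2 dimmer probes. The growth hormone targets Igf1, Socs2 and Cish were not called, at 0.054, -0.75 and -0.35. Of 13 C/EBP and partner bZIP genes, Cebpb and Dbp, a clock-controlled factor (0.47, adjusted p = 0.0127), were higher. Cebpa was not called, at -0.24.

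The other lists of regulation and stress held few called genes. Of 18 clock genes, 1 was called higher, Dbp, and 1 lower. Of 23 glucocorticoid and stress genes, Gadd45a, a DNA damage response gene, was higher (0.45, adjusted p = 0.00251). Fkbp5, a chaperone gene of the glucocorticoid response, was lower (-0.73, adjusted p = 0.00872) at 1 probe only, with -0.14 and -0.13 at the other 2. Of 30 glutathione transferase and NRF2 target genes, Gstm4, a conjugating enzyme, was the 1 called, lower by 0.33 (adjusted p = 0.0145), and the list median was -0.11.

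**Figure D3:**
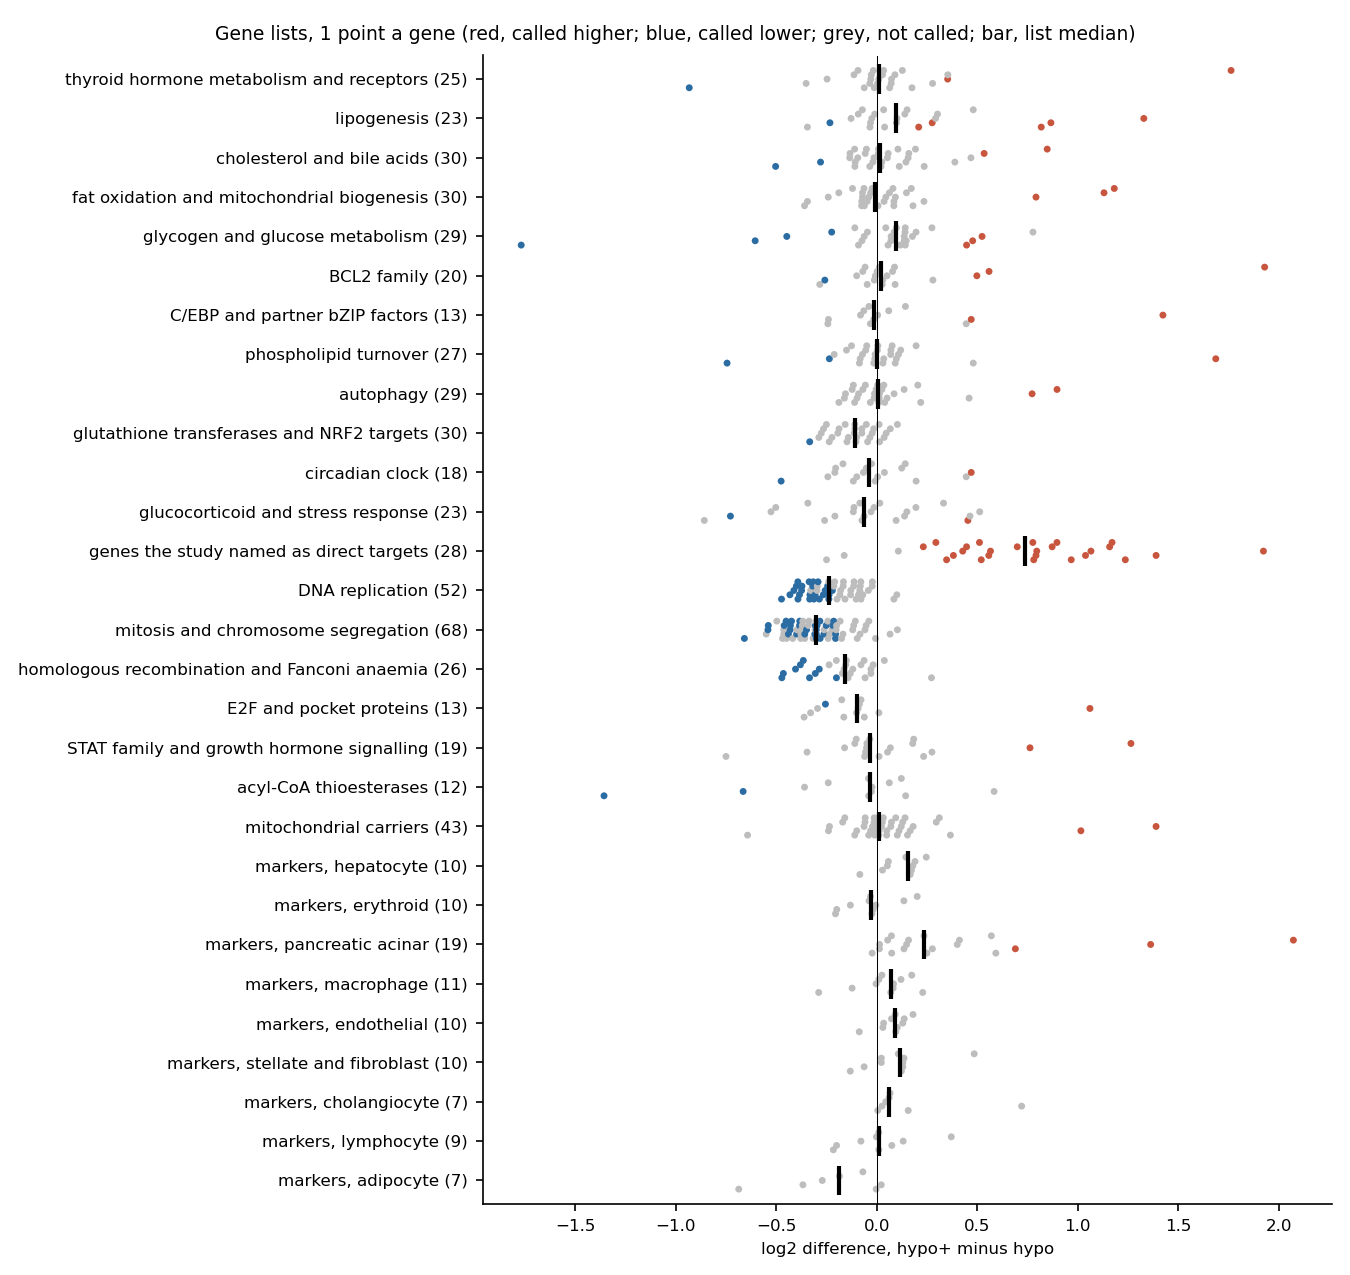
Log2 difference between hypo+ and hypo livers (x axis) of every measured gene in each list (rows), with genes called higher in red, genes called lower in blue, the others in grey, a bar at the list median and the number of genes in brackets. The lists of DNA replication, mitosis and homologous recombination sit to the left of 0, and the genes the study named as direct targets sit to the right. The other functional lists have medians from -0.11 to 0.098 and a few called genes. Among them, 24 of 30 glutathione transferase and NRF2 genes and 11 of 13 genes of the E2F list were negative, and 20 of 29 glycogen and glucose genes were positive.

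Genes of cell division were lower as a group after the hormone, each by a small amount. The lists of such genes, like those of E2F, STAT, thioesterase and carrier genes, were written out after the calls had been seen. Of 52 DNA replication genes, 24 were called lower and none higher, against a background of 1.51% of genes called lower, and 50 of the 52 had a negative difference (median -0.24). Cdt1, which licenses origins, ran from -2.41 to -1.96 with a median of -2.33 in hypo and from -2.98 to -2.56 with a median of -2.67 in hypo+ livers, without overlap, a difference of -0.47 (SE 0.067, adjusted p = 0.000712). Mcm3, a subunit of the replicative helicase, differed by -0.33 (SE 0.059, adjusted p = 0.00402), and Dna2, a nuclease of Okazaki fragment processing, by -0.38 (SE 0.06, adjusted p = 0.00162). Rpa2, which coats single-stranded DNA, fell by 0.37 (adjusted p = 0.00104). The polymerase clamp Pcna, with -0.31 (adjusted p = 0.0468), was near the threshold. Of the 52 genes, called or not, 14 had every hypo+ pup below every hypo pup of its sex, beside 159 of all 33236 genes (0.478%).

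Of 68 genes of mitosis and chromosome segregation, 28 were called lower and none higher, and 66 had a negative difference (median -0.30). The kinetochore genes Cenph and Cenpk differed by -0.43 (SE 0.066, adjusted p = 0.00135) and -0.44 (SE 0.069, adjusted p = 0.00172). Kif15, a spindle motor, ran from -1.81 to -1.33 with a median of -1.59 in hypo and from -2.29 to -1.86 with a median of -2.002 in hypo+ pups, a difference of -0.43 (SE 0.075, adjusted p = 0.00374), while a second probe near background gave 0.021. Kif18b, a motor that shortens microtubules, differed by -0.28 (SE 0.053, adjusted p = 0.00705). The largest difference of the list was in Ect2, a regulator of cytokinesis, at -0.66 (adjusted p = 0.0317), and the groups overlapped there. The mitotic kinase Cdk1 and the transcription factor Foxm1 were lower by similar amounts, -0.30 and -0.30. Of the 68 genes, called or not, 7 had every hypo+ pup below every hypo pup of its sex, beside 159 of all 33236 genes (0.478%).

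Of 26 homologous recombination and Fanconi anaemia genes, 9 were called lower and none higher (median -0.16). Mre11a, a nuclease of double-strand breaks, ran from -1.36 to -1.15 with a median of -1.21 in hypo and from -1.67 to -1.42 with a median of -1.53 in hypo+ livers, a difference of -0.29 (SE 0.039, adjusted p = 0.00048). Fanci and Fancb, of the crosslink repair pathway, differed by -0.38 (SE 0.056, adjusted p = 0.00093) and -0.47 (SE 0.08, adjusted p = 0.00298), and Rad51ap1, an accessory factor of strand exchange, by -0.31 (SE 0.052, adjusted p = 0.00319). Dim second probes of Mre11a, Fanci and Dna2 gave -0.047, 0.032 and -0.16, none of them called. In the E2F list, which holds the factors that time these genes, E2f1, an activator, was lower by 0.25 (adjusted p = 0.0196). E2f8, a repressor of the family, was higher at its brightest probe, 1.06 (SE 0.16, adjusted p = 0.00127), but stood at -0.068 (adjusted p = 0.776) at its other probe. The remaining 11 of 13 genes of that list were not called.

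As a mean over its 52 genes, DNA replication ran from -0.98 to -0.81 in the 9 hypo livers (median -0.93) and from -1.36 to -1.01 in the 7 hypo+ livers (median -1.11), without overlap. Control livers ran from -1.05 to -0.77 and hyper livers from -1.02 to -0.78, so the hypo range lay within the range of the control livers, and the hypo+ median lay below every control and hyper liver. Over the 68 mitosis genes the mean ran from -1.40 to -1.14 in hypo (median -1.25) and from -1.85 to -1.32 in hypo+ pups (median -1.54), with overlap. Here hyper livers ran from -1.65 to -0.94. No test was made against the control and hyper groups. The lowest hypo+ livers in both lists were male 761 (-1.18 and -1.76), male 363 (-1.18 and -1.63) and female 601 (-1.36 and -1.85). They shared a scan batch, which also held the hypo female 575 (-0.98 and -1.36). With scan batch as a fixed term the list medians of the difference were -0.22 for DNA replication and -0.27 for mitosis. The counts of called genes in these lists depended on the normalization and on single pups. With each array only centred on its median, 6 DNA replication, 5 mitosis and 3 homologous recombination genes were called lower, and with slide as a fixed term none was, while the medians of the DNA replication and mitosis lists stayed below 0 in every setting run. Without single pups the DNA replication count ran from 19 to 26 and the mitosis count from 15, without the hypo female 743 or the hypo+ female 763, to 39, without the hypo+ male 546.

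**Figure D4:**
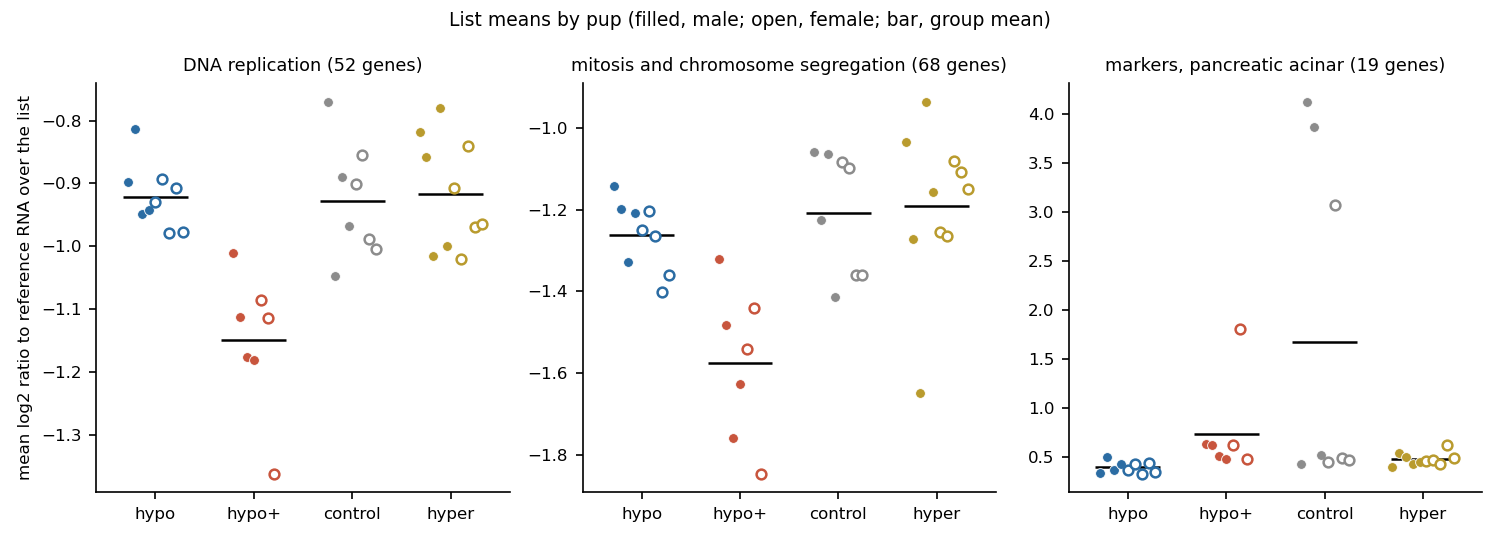
Mean log2 ratio to the reference RNA (y axis) over the genes of DNA replication, of mitosis and of the pancreatic acinar markers in hypo, hypo+, control and hyper pups (x axis), with 1 point for each pup (filled, male; open, female) and a bar at the group mean. For DNA replication the 7 hypo+ pups all lie below the 9 hypo pups, for mitosis the ranges overlap, and for the acinar markers 1 hypo+ pup and 3 control pups stand apart.

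The study named a set of genes as direct targets of the hormone, choosing them on these samples, so their count here is not independent evidence of their direction. Of the 28 measured, 25 were called higher and none lower (median 0.74), and 23 separated the groups within each sex. With slide as a fixed term 13 were called higher. Sned1 had the smallest p-value of all probes. It ran from -1.03 to -0.73 with a median of -0.79 in hypo and from 0.27 to 0.56 with a median of 0.40 in hypo+ pups, a difference of 1.24 (SE 0.05, adjusted p = 9.95e-10). Trim24, a nuclear receptor cofactor, ran from -0.073 to 0.40 with a median of 0.16 in hypo and from 1.23 to 1.54 with a median of 1.34 in hypo+ livers, a difference of 1.17 (SE 0.068, adjusted p = 8.34e-08). The uncharacterised gene 4633401B06Rik was higher by 1.04 (SE 0.063, adjusted p = 8.52e-08) and DXBay18 by 1.92 (SE 0.12, adjusted p = 8.52e-08). At the lower end, Hectd3, a ubiquitin ligase, rose by 0.23 (adjusted p = 0.00381), and Fzd8, a Wnt receptor, by 0.29 (adjusted p = 0.0208). Ces2c, Ihh and Serpina9 were not called, at 0.11, -0.16 and -0.25.

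Several of the largest differences lay in genes of none of the functional lists. Nudt7, a peroxisomal hydrolase of coenzyme A, ran from 2.78 to 3.70 with a median of 3.04 in hypo and from 4.42 to 5.10 with a median of 4.54 in hypo+ livers, a difference of 1.42 (SE 0.14, adjusted p = 1.75e-05), with 1.22 at a second probe. Bcl3, an atypical inhibitor of NF-κB that acts in the nucleus, ran from -0.62 to 0.38 with a median of -0.067 in hypo and from 0.72 to 1.56 with a median of 1.22 in hypo+ livers and differed by 1.30 (SE 0.14, adjusted p = 2.88e-05). Cpsf4l differed by 1.39 (SE 0.24, adjusted p = 0.00308), though 1 or more hypo+ pups lay within the hypo range. Among decreases, Spsb4, a SOCS box protein, fell by 1.15 (adjusted p = 0.0101) and the stress kinase Plk3 by 0.78 (adjusted p = 0.0169), both with overlap across sexes, and without the hypo+ female 763 Plk3 stood at -0.70 (adjusted p = 0.0652). Keg1, a glycine acyltransferase-like gene, ran from 2.86 to 3.37 with a median of 3.05 in hypo and from 1.66 to 2.59 with a median of 2.30 in hypo+ pups and differed by -0.78 (SE 0.11, adjusted p = 0.000833). Egln3, a prolyl hydroxylase of the oxygen sensing pathway, fell by 0.74 (adjusted p = 0.000418) and Apol7a, of the apolipoprotein L family, by 0.59 (adjusted p = 0.00199). The second largest decrease on the array, -1.64, was at probe A_52_P1156957, for which no gene symbol was found.

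A further 4 called genes were markers of another tissue or lost their call without single pups. The digestive proteases Ctrc and Cela2a and the secreted protein Reg1 are products of the exocrine pancreas, and they were the 3 of 19 acinar markers called higher, with none lower, 18 of the 19 differences positive and a list median of 0.24. Ctrc ran from 0.38 to 0.92 with a median of 0.62 in hypo and from 1.41 to 3.36 with a median of 2.01 in hypo+ pups and differed by 1.36 (SE 0.20, adjusted p = 0.000955). The hypo+ female 543, whose acinar transcripts were the highest of the 16 livers, had the highest Ctrc value, and the other 6 hypo+ pups lay between 1.41 and 2.23, all above the hypo pups. Ctrc stayed called in all 16 omissions of 1 pup. Its mean was 0.65 in hypo, 1.82 in hyper and 2.52 in control livers, where the acinar list means were 0.40, 0.48 and 1.68. Reg1 was between 3.04 and 3.59 in 4 hypo+ pups and between 0.22 and 0.33 in the other 3 (male 761, male 363 and female 601, which shared a scan batch), against at most 0.71 in hypo pups, a difference of 2.07 (SE 0.44, adjusted p = 0.0155). Dmbt1, a secreted scavenger receptor protein singled out here after its value was seen, had the largest difference of all called genes with a symbol, 2.70 (SE 0.62, adjusted p = 0.0247). It ran from -0.15 to 1.76 with a median of -0.073 in hypo and from 0.026 to 5.17 with a median of 2.91 in hypo+ livers, with overlap. The mean of Dmbt1 was 0.21 in hypo, 0.049 in hyper and 1.80 in control livers. For Reg1 these means were 0.20, 0.23 and 2.89. Control livers were scattered in both genes (SD 1.72 and 3.32). Cela2a was well above background in 1 of 9 hypo and in 7 of 7 hypo+ pups, so its hypo level lay near background, and the measured difference was 0.69 (adjusted p = 0.0418). Without the hypo+ female 543 the differences were 1.08 in Ctrc, 0.40 in Cela2a, 1.81 in Reg1 and 3.08 in Dmbt1, all called. Of the 16 omissions of 1 pup, 4 kept the call of Cela2a and 10 that of Dmbt1, and Reg1 lost it without the hypo+ female 763 (adjusted p = 0.0621). The summed Cy5 signal of the acinar markers ran from 6199 to 10120 in hypo and from 5999 to 13840 in hypo+ pups, Pnlip was never well above background, and 3 control livers had list means of 3.07 to 4.13. The part of pancreatic RNA in these 4 differences was not tested. No gene of the hepatocyte, erythroid, macrophage, endothelial, stellate, cholangiocyte, lymphocyte and adipocyte marker lists was called in either direction.

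Most probes called in one sex moved the same way in the other. Fitted alone, the 8 males gave 107 probes called higher (0.26%) and 25 lower (0.0607%), and the 8 females 123 higher (0.299%) and 24 lower (0.0583%). Of the 107 probes higher in males, 106 were also higher in females, with a median difference of 0.75 there against 0.74 in males, and 59 were called in both sexes. Of the 24 probes lower in females, all were lower in males, with medians of -0.57 and -0.48, and 5 were called in both. A test of the difference itself, the sex by injection term of a limma fit to all 16 arrays, called 0 of 41174 probes (0.0%), with 1322 at an unadjusted p under 0.05. With so few pups this does not show that the sexes respond equally. Males and females of a group may be siblings, so the agreement of the sexes is no independent replication. The share of all probes that moved the same way in both sexes was not counted. Plk3 had one of the wider gaps among the named genes, -0.43 in males and -1.16 in females.

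**Figure D5:**
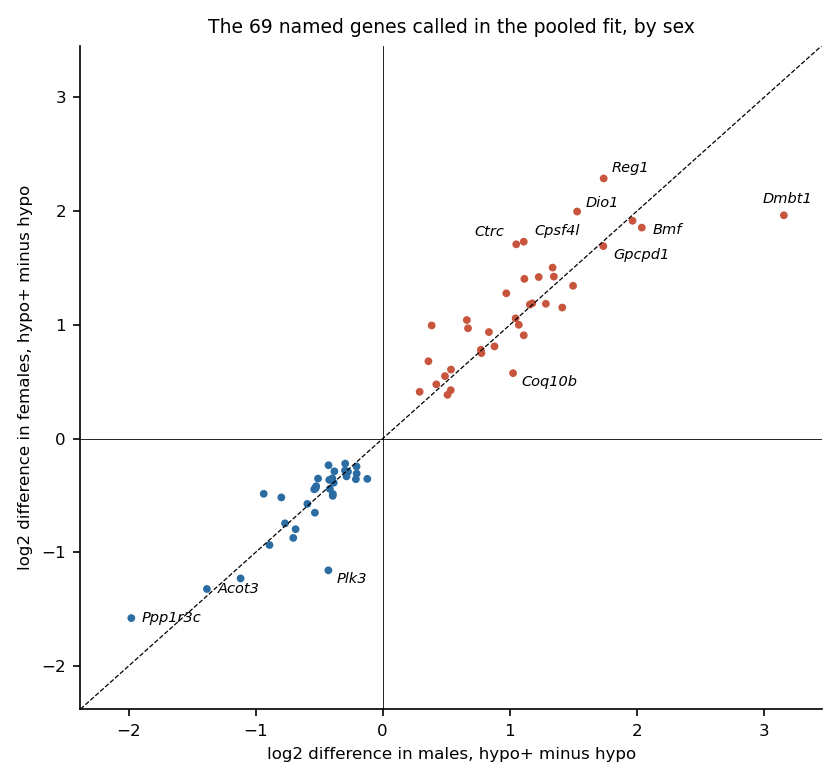
Log2 difference between hypo+ and hypo livers fitted in males alone (x axis) against that in females alone (y axis) for the 69 named genes that were called over both sexes (red, higher; blue, lower), with a dashed line of equality. Every point lies in the quadrant where both sexes moved the same way, and Dmbt1, Plk3, Ctrc and Cpsf4l are among those farthest from the line.

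Slides and scan batches were the technical groupings that the labels and headers give. The 16 arrays sat on 11 slides, and 4 slides held 1 pup of each group. On those 4, 421 of the 480 higher genes and 432 of the 502 lower genes kept their direction on every slide, where 6.66% and 10.4% of all 33236 genes were higher or lower on every one. Within the slides, lettered B, C, G and H, the median difference of the higher genes was 0.29, 0.46, 0.41 and 0.34, and of the lower genes -0.23, -0.30, -0.29 and -0.26. These shares rest on the same arrays as the calls and are no independent test. Of the 6 scan batches, 4 held both groups, and 465 of the higher and 480 of the lower genes kept their direction in all 4. The medians there ran from 0.31 to 0.41 for the higher and from -0.33 to -0.23 for the lower genes. With scan batch as a fixed term, 204 genes were higher and 123 lower, and with slide as a fixed term, which left 3 residual degrees of freedom, 65 and 20.

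Set beside pups that had no goitrogen, most called genes ended on the far side of the control level. The control mean lay between the hypo and hypo+ means in 425 of the 480 higher genes and beyond the hypo+ mean in 31. Among the 502 lower genes it lay between in 376, beyond the hypo+ mean in 29 and on the other side of the hypo mean in 97. The median of the group means of the higher genes was 0.29 in hypo, 0.50 in control, 0.67 in hyper and 0.70 in hypo+ livers, and that of the lower genes -0.02, -0.16, -0.19 and -0.29. Bmf was at 0.87 in control and 1.71 in hyper livers, and Ppp1r3c at 3.50 and 2.53. E2f8 was at 2.17 in control and 2.37 in hyper livers, above all 7 hypo+ pups in both means. These placements are descriptions, and the genes were chosen by the same hypo and hypo+ arrays.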

How the data were processed

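Liver RNA of each pup (Cy5) was hybridised with a mouse reference RNA (Cy3) to an Agilent whole genome array. The deposited scanner files hold median spot intensity for both dyes, with no background subtraction, and the software's log10 ratio after its own background and dye correction. The authors also deposited log2 ratios normalized within arrays by loess. Their columns had medians between -0.050 and -0.018 on these 16 arrays, and a slope on the scanner files' log2 ratio between 0.711 and 0.985 showed scale and direction (Cy5 over Cy3), while any further centring is not stated.

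From the median intensities, without background correction, log2 ratios were loess-normalized within each array over non-control probes. They were fitted in limma 3.58.1 (R 4.3.3) with group and sex, and with slide as a random block (duplicateCorrelation, correlation 0.277, 13 residual degrees of freedom). The Benjamini-Hochberg adjustment ran over all 41174 probes. The design was applied to counts of calls, single-sex fits and a sex by injection term. A gene was read at the probe with the highest mean Cy5 signal. Of 33541 accessions on the array, 16806 were named through RefSeq and 75 through name columns of the study's tables, and the rest kept their identifiers. Of the 33236 genes, 16577 had a symbol. A probe counted as well above background when it passed the software's own test. No depth exists for arrays, and the number of pups limits the precision. The fit was tested on simulated data before use.

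The members of the comparison and the gene lists were chosen with earlier results of these data known. The lists of DNA replication, mitosis, homologous recombination, E2F, STAT, acyl-CoA thioesterase and mitochondrial carrier genes were written out by family or complex after the calls had been seen. Genes were named by rule: the 5 genes picked with the comparison, the 10 largest increases and 8 largest decreases among called genes whose groups were apart within each sex, known hormone targets, and up to 4 called members of each list with the lowest p. Members of the lists that were called or that a reader would look for were added, as was Dmbt1. The study's tables of fold changes and p-values were not used. Some members of the lists, included in the counts, are not reported here by name.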

Additional observations from a re-analysis of the deposited data

Results flagged for a closer look

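Of 50 pairs of a named gene and a group, 6 had 1 pup far from the rest of its group, where chance gives about 1 in 20. Nudt7, the peroxisomal coenzyme A hydrolase, was at 5.10 in the hypo+ male 454, above the other hypo+ pups. Ctrc, the pancreatic protease, was at 3.36 in the hypo+ female 543, the pup whose acinar transcripts were the highest of the 16 livers. Keg1 was at 1.66 in the hypo+ female 601, the lowest of its group. Egln3 was at -1.21 in the hypo+ male 546, the highest of its group. Apol7a was at 5.14 and Dmbt1 at 1.76 in the hypo male 576, each the highest of the hypo pups. Of these values, those of Nudt7, Ctrc, Keg1 and Apol7a lie further from the other treatment group than the rest of their own group, and those of Egln3 and Dmbt1 lie nearer to it.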

How the results depend on the processing

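Counts of calls stayed close under normexp background correction, the authors' log2 values, bright probes alone, the Cy5 channel alone and no block, within 1.5 times of those reported. They changed more in other settings, and the cause was not tested. Median centring gave 345 probes higher and 229 lower (260 and 193 genes) and 319 probes in males. The scanner software's ratios gave 303 probes and 255 genes lower, 8 probes in males and 26 in females. Slide as a fixed term, which left 3 residual degrees of freedom, gave 82 and 28 probes (65 and 20 genes). Litter, inferred from animal numbers, as random block gave 352 probes and 292 genes lower. Scan batch as a fixed term gave 261 and 144 probes (204 and 123 genes). Leaving out 1 pup at a time, probes called higher ran from 433 to 692 and lower from 340 to 628, genes higher from 327 to 532 and lower from 286 to 513. The lowest counts came without the hypo+ female 763. The lower genes also fell by over 1.5 times without the hypo+ male 761 (327) or the hypo female 743 (331). Single-sex fits, of 132 probes in males and 147 in females, ran from 24 to 78 and from 21 to 145, and the interaction stayed at 0. Where 1 slide pair remained, these were fitted without a block. Of the 69 called named differences, 3 turned sign within 1 slide: Acly (0.000298) and Cyp7a1 (-0.31) on slide B and Dbp (-0.034) on slide H. All 69 kept their sign in the fits over all pups and in leaving out any pup. Each animal number is unique to 1 pup, and no label pairs a hypo pup with a hypo+ pup. Pups of 1 group can share leading digits, as the hypo+ male 761 and the hypo+ female 763 do. In hypo pups 891 and 893, 576 and 575, 311 and 316, and 723 and 721 share them, and in hypo+ pups so do 546 and 543. Such shared digits were the litters inferred above, so many pups of a group may be siblings. No inferred litter held pups of both groups, so the injection and differences between litters cannot be told apart here. The only pairs across the groups were those on the 4 slides with 1 pup of each group, which the slide term uses. Array number and signal over background, not depth, limit small differences.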
